A study of Mus musculus with 15 samples.

Results

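The 10 genes described here encode proteins that hold calcium in the sarcoplasmic reticulum of muscle or open the store-operated entry route that refills it. They were taken by symbol as Casq1, Casq2, Stim1, Stim2, Orai1, Srl, Hrc, Tmem38a, Tmem38b and Jsrp1, and all 10 were found among the 30672 genes of the count table. Each passed the filter on low counts, as did 15533 genes in all, and the lowest count of any member in any library was 363, for Casq2. The genes were listed by name and not by a cutoff on a measured value, but earlier results of these data were known.

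RNA of the tibialis anterior, a fast hindlimb muscle, was sequenced from 15 mice, all males of strain 129Pas at an age of 7 weeks. Of these, 4 were WT and 4 were WT mice given tamoxifen (WT + TAM). A further 4 lacked Mtm1 on their X chromosome (Mtm1-/y), and 3 were such mutants given tamoxifen (Mtm1-/y + TAM). Mtm1 encodes myotubularin, a lipid phosphatase whose loss causes X-linked myotubular myopathy, and tamoxifen is a modulator of oestrogen receptors. The labels name neither the deleted part of Mtm1 nor the dose, start or vehicle of tamoxifen, and they do not say whether the WT mice were littermates.

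In muscle fibres, calsequestrin binds calcium inside the terminal cisternae, close to the ryanodine receptor through which calcium leaves. Counter-ion channels of the reticulum balance the charge that this release carries. When the store empties, STIM proteins in the reticulum membrane sense the fall and open ORAI channels in the transverse tubule, so that calcium enters from outside. Mtm1-/y muscle is known for disordered triads, the junctions of tubule and reticulum at which these proteins meet.

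Levels are given as CPM, counts of a gene scaled to a common library size, after correction by the trimmed mean of M-values (TMM), and libraries held 18042558 to 45823277 counts. Mtm1 itself was at 14.9 to 15.6 CPM in WT and 13.5 to 17.7 CPM in WT + TAM. It was at 2.91 to 3.63 CPM in Mtm1-/y and 3.04 to 3.71 CPM in Mtm1-/y + TAM, so that no library went against its genotype label. The 10 fast fibre markers summed to 155390 to 263281 CPM over all libraries, and none was at 0 in any, as fits the labelled muscle. The 8 slow fibre markers summed to 1376 CPM in WT + TAM replicate 1 and to 68.3 to 265 CPM in the other 14 libraries. That library also stands apart over all genes tested. Mtm1-/y replicate 1 stands apart in Casq1 and over all genes tested. Values without these libraries are given beside several results that they moved. Pearson correlations of log2 CPM between Mtm1-/y replicate 1 and the other Mtm1-/y libraries were 0.961 to 0.970. Among those others they were 0.982 to 0.989. Between WT + TAM replicate 1 and the other WT + TAM libraries they were 0.964 to 0.966, and 0.981 to 0.988 among those others. Because the RNA came from whole muscle, fewer cells of a type and less RNA per cell cannot be told apart. The labels name separate samples but do not describe how the mice were chosen, so p-values measure the spread between these samples.

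Per kilobase of exon, the members spanned a wide range of levels in WT. Casq1, the calsequestrin of fast fibres, led with 2869 ± 407 CPM per kb (SD, n = 4) and ranked 23 among the 15533 genes tested. Tmem38a, a counter-ion channel known as TRIC-A, followed at 689 ± 70.01 CPM per kb. Srl, which encodes the luminal glycoprotein sarcalumenin, was at 532 ± 76.4 CPM per kb. Hrc, a histidine-rich calcium-binding protein of the lumen, was at 480.0 ± 55.1 CPM per kb, and its range overlapped that of Srl.

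Jsrp1, which encodes the junctional protein JP-45, was at 174 ± 13.1 CPM per kb in WT. The remaining members formed a lower tier. Stim1, the main calcium sensor of muscle, was at 28.2 ± 3.34 CPM per kb. Casq2, the calsequestrin of heart and slow fibres, was at 16.6 ± 2.93 CPM per kb, and Tmem38b, the counter-ion channel TRIC-B found in many tissues, was at 16.1 ± 1.45 CPM per kb, with ranges that overlapped.

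At the lower end, Orai1, the pore of the entry channel, was at 13.0 ± 0.789 CPM per kb. The lowest member was Stim2, a sensor of small falls in store calcium, at 8.74 ± 0.886 CPM per kb. The WT ranges of neighbours in this order overlapped only for Srl with Hrc and for Casq2 with Tmem38b. Both sensors and the pore were thus far below Casq1, Tmem38a, Srl, Hrc and Jsrp1 in level per length. Length here is that of all annotated exons of a gene together, 10371 bases for Stim1, and the order depends on it. Without division by length, Stim1 averaged 292 CPM in WT, above Jsrp1 at 232 CPM.

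**Figure D1:**
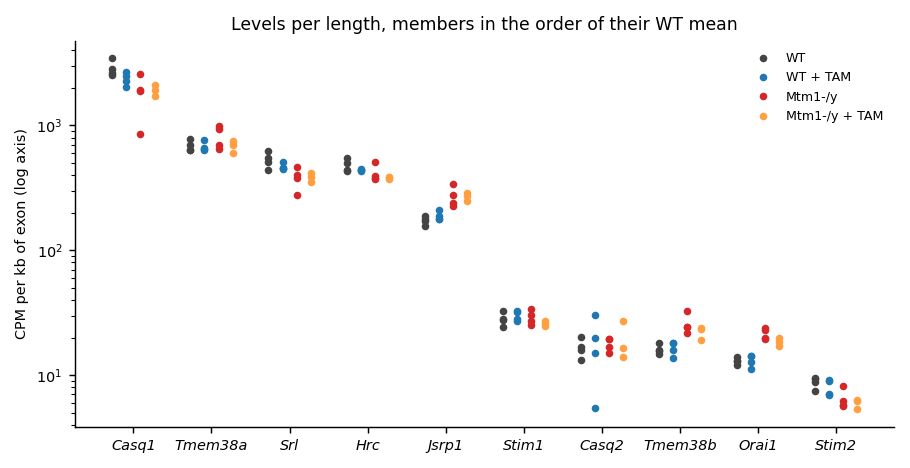
Level per length of each member in each of the 15 libraries, as CPM per kb of exon on a log axis, with members in the order of their WT mean. Casq1 lies highest in WT (2869 CPM per kb on average) and Stim2 lowest (8.74 CPM per kb), and colours mark the 4 groups.

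The comparison of Mtm1-/y with WT asks what loss of myotubularin changed in untreated muscle. Of the 10 members, 6 passed an adjusted p of 0.05 in edgeR's quasi-likelihood test, where 30.4% of all genes tested did. Orai1, Tmem38b and Jsrp1 rose, against 15.5% of all genes that rose, and Casq1, Stim2 and Srl fell, against 14.9% that fell. In 3 members every Mtm1-/y library was above every WT library, an order held by 14.8% of all genes. In no member was every Mtm1-/y library below every WT library, an order held by 15.7% of all genes. The median log2 fold change of the members was 0.07, beside 0.00 over all genes tested, and the median of its absolute value was 0.46, beside 0.32.

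**Figure D2:**
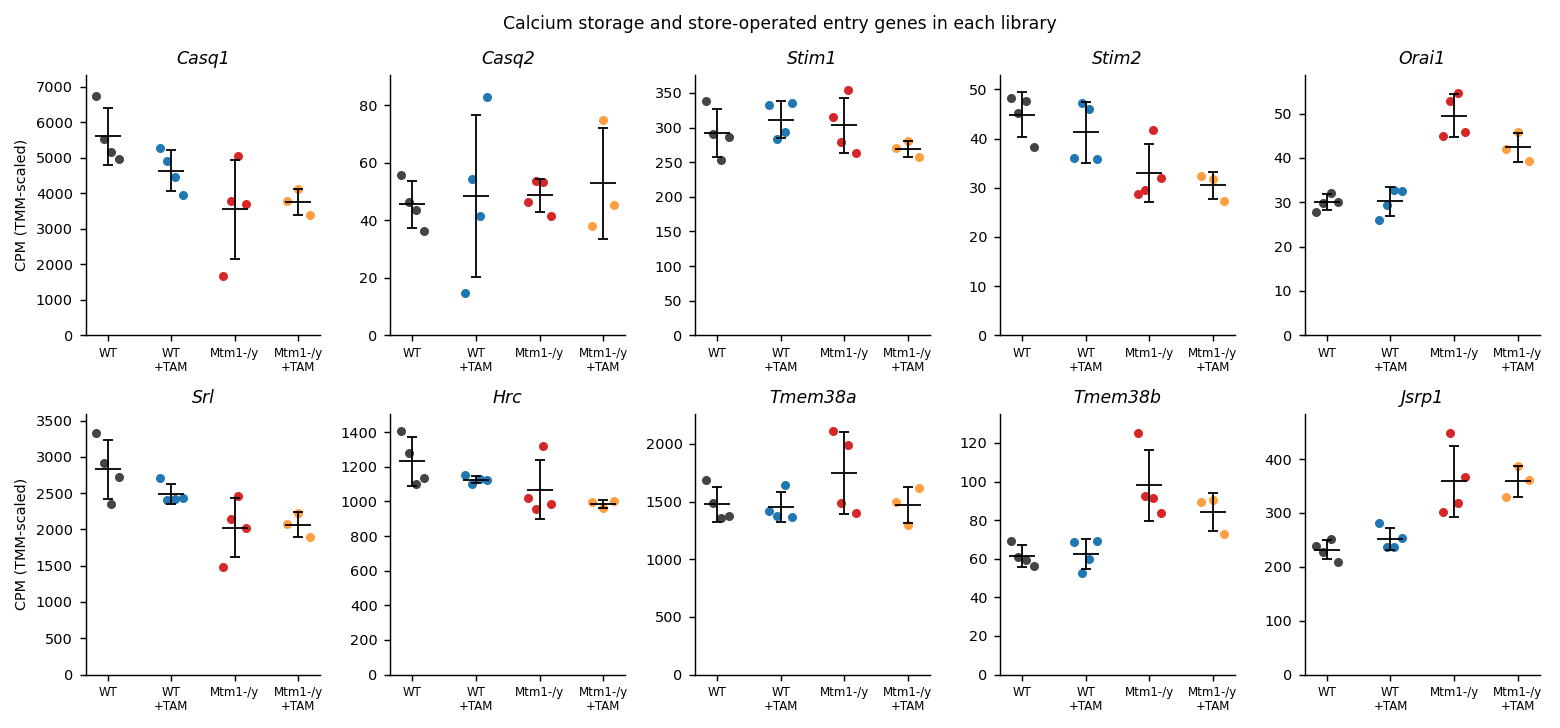
CPM of each member in each library (points), with the mean and SD of each group (black), with 4 libraries in each group but Mtm1-/y + TAM, which has 3, and each axis starting at 0. The Mtm1-/y points of Orai1, Tmem38b and Jsrp1 lie above all WT points, while 1 Mtm1-/y library, replicate 1, is far below the others in Casq1 (1656 CPM).

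Orai1 (ENSMUSG00000049686, chr5:123015074-123030456 of GRCm38, plus strand) was at 27.7, 29.8, 32.2 and 30.1 CPM in WT. It was at 44.8, 52.9, 54.6 and 45.8 CPM in Mtm1-/y. All 4 mutant libraries stood above all 4 WT libraries. The log2 fold change was 0.73 (SE 0.10, 95% interval 0.52 to 0.93, adjusted p = 9.24e-05), and it passed in all 15 fits that left out 1 library. An antisense gene, Gm2479, overlaps exons of Orai1 and had a median of 1 count. No source says whether counting used strand, so reads of the pair may not be told apart.

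Among the sensors, Stim1 (ENSMUSG00000030987, chr7:102267806-102437319, plus strand) was at 338, 291, 254 and 286 CPM in WT and at 316, 279.6, 354 and 263 CPM in Mtm1-/y. The groups overlapped throughout. Its log2 fold change was 0.05 (SE 0.11, 95% interval -0.19 to 0.29, adjusted p = 0.757), so that a change as large as that of Orai1 lay outside the interval.

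Stim2 (ENSMUSG00000039156, chr5:53998499-54121057, plus strand) was at 48.3, 45.1, 47.6 and 38.3 CPM in WT. In Mtm1-/y it was at 28.8, 29.6, 41.8 and 31.9 CPM. Mtm1-/y replicate 3 alone reached into the WT range. The log2 fold change was -0.44 (SE 0.13, 95% interval -0.72 to -0.16, adjusted p = 0.0193). The call was lost without WT replicate 1 (adjusted p = 0.0536) and without Mtm1-/y replicate 2 (adjusted p = 0.0561).

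In these fits Orai1 thus rose, Stim2 fell and Stim1 did not pass. Ratios within a library describe the same genes without any scaling between libraries. Orai1 stood at 37.1, 46.4, 57.3 and 47.5 per 100 Stim1 in WT, and at 64.2, 85.5, 69.7 and 78.7 per 100 Stim1 in Mtm1-/y, in counts per kb. All mutant ratios were above all WT ratios. This ratio was chosen after the values were seen and has no test.

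Stim2 stood at 28.9, 31.4, 37.9 and 27.1 per 100 Stim1 in WT and at 18.4, 21.4, 23.9 and 24.5 per 100 Stim1 in Mtm1-/y. The groups did not overlap. The log2 ratio differed by -0.50, with an exact permutation p of 0.0286, two-sided, which is the smallest that 4 against 4 libraries can give. Adjusted over the 12 ratio tests the p was 0.114, which does not pass.

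Of the counter-ion channels, Tmem38b (ENSMUSG00000028420, chr4:53826045-53862019, plus strand) was at 69.1, 61.0, 59.4 and 56.2 CPM in WT and at 125, 92.4, 91.7 and 83.5 CPM in Mtm1-/y. Every mutant library was higher than every WT library. Tmem38b thus had a log2 fold change of 0.68 (SE 0.13, 95% interval 0.40 to 0.95, adjusted p = 0.0014), and all 15 fits without 1 library kept the call.

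Tmem38a (ENSMUSG00000031791, chr8:72572055-72587282, plus strand) was at 1684, 1487, 1361 and 1371 CPM in WT. Its Mtm1-/y libraries lay at 2112, 1485, 1991 and 1396 CPM, with replicates 1 and 3 above WT and the other two within it. Its log2 fold change was 0.24 (SE 0.14, 95% interval -0.06 to 0.54, adjusted p = 0.207), and it was 0.14 without Mtm1-/y replicate 1.

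Tmem38b stood at 2.30 to 2.46 per 100 Tmem38a in WT and at 3.33, 3.50, 2.59 and 3.37 per 100 Tmem38a in Mtm1-/y. The groups did not overlap, and Mtm1-/y replicate 3 was closest to WT. The log2 ratio differed by 0.44 (exact permutation p = 0.0286, two-sided, adjusted p = 0.114).

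Casq1 (ENSMUSG00000007122, chr1:172209894-172219868, minus strand) was at 6738, 5519.8, 5166 and 4964 CPM in WT. It was at 1656, 3784, 5044 and 3693 CPM in Mtm1-/y. Replicate 1 was lowest by far and replicate 3 lay within the WT range. Casq1 thus had a log2 fold change of -0.66 (SE 0.24, 95% interval -1.16 to -0.16, adjusted p = 0.0461).

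This call was close to the threshold. It was lost in 12 of the 15 fits that left out 1 library, with adjusted p of 0.0514 to 0.125, and was kept only where the library left out was WT + TAM replicate 1 or replicate 1 or 3 of Mtm1-/y. Its size rested in part on Mtm1-/y replicate 1, without which it was -0.42 (adjusted p = 0.0435). With the replicate number as a block the log2 fold change was -0.68 (adjusted p = 0.0705), and with only the WT and Mtm1-/y libraries fitted the adjusted p was 0.111. An antisense gene, Gm17224, overlaps Casq1 exons and had a median of 23 counts, beside at least 63330 counts of Casq1 in every library.

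Casq2 (ENSMUSG00000027861, chr3:102086415-102146514, plus strand) was at 55.7, 46.3, 43.5 and 36.3 CPM in WT and at 46.3, 53.5, 53.3 and 41.3 CPM in Mtm1-/y. The groups overlapped. The log2 fold change was 0.10 (SE 0.37, 95% interval -0.71 to 0.90, adjusted p = 0.872), an interval wider than that of any other member.

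Relative to Casq1, Casq2 stood at 0.522 to 0.6002 per 100 in WT and at 1.99, 1.01, 0.754 and 0.799 per 100 in Mtm1-/y. All mutant ratios were above all WT ratios, with replicate 1, the library of low Casq1, highest. The log2 ratio differed by 0.86 (exact permutation p = 0.0286, two-sided, adjusted p = 0.114). Without that library the difference was 0.55. Per length, Casq1 was by far the more abundant calsequestrin in every library of both groups.

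Srl (ENSMUSG00000022519, chr16:4480216-4541816, minus strand) was at 3329.6, 2916, 2351 and 2728 CPM in WT. Its Mtm1-/y libraries were at 1482, 2139, 2454 and 2014 CPM, of which replicate 3 alone lay within the WT range. On the log2 scale Srl differed by -0.49 (SE 0.14, 95% interval -0.79 to -0.18, adjusted p = 0.0196). The call was lost without WT replicate 1 (adjusted p = 0.0673) and with only the WT and Mtm1-/y libraries fitted (adjusted p = 0.0566).

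Hrc (ENSMUSG00000038239, chr7:45335290-45338974, plus strand) was at 1409, 1281, 1101 and 1136 CPM in WT and at 1017, 955, 1319.7 and 982 CPM in Mtm1-/y. Replicate 3 of the mutants was again the highest and the other three lay below WT. Its log2 fold change was -0.20 (SE 0.12, 95% interval -0.45 to 0.04, adjusted p = 0.192). Without Mtm1-/y replicate 3 it was -0.30 and passed (adjusted p = 0.0341).

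Jsrp1 (ENSMUSG00000020216, chr10:80808496-80813498, minus strand), whose product joins calsequestrin to the voltage sensor of the tubule, was at 238, 227, 251 and 209.6 CPM in WT. It was at 302, 449, 318 and 367 CPM in Mtm1-/y. All mutant libraries were above all WT libraries. On the log2 scale the difference was 0.63 (SE 0.12, 95% interval 0.38 to 0.89, adjusted p = 0.0013), and it passed in all 15 fits without 1 library.

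**Figure D3:**
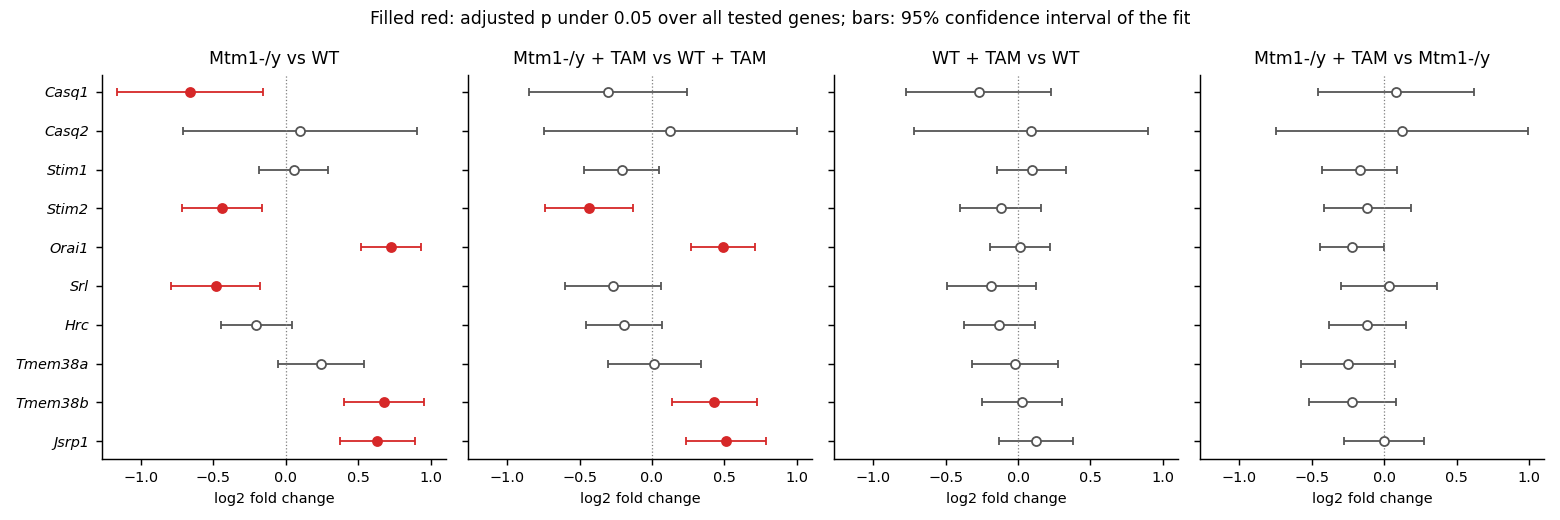
Log2 fold change of each member (point) with its 95% interval (bar) in the 4 comparisons, filled red where the adjusted p over all genes tested is under 0.05. In Mtm1-/y vs WT 6 members are filled and in Mtm1-/y + TAM vs WT + TAM 4 are, while none is filled in the comparisons of tamoxifen with no drug.

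Under tamoxifen the genotypes were compared again, between the treated groups. The fit shared its scaling and its estimate of spread over all 15 libraries, so this was not an independent repeat. Here 4 of the 10 members passed, where 20.1% of all genes did. Orai1, Tmem38b and Jsrp1 were higher in Mtm1-/y + TAM than in WT + TAM and Stim2 was lower. Each of the 4 had moved in the same direction without the drug. Every Mtm1-/y + TAM library was above every WT + TAM library in 3 members, an order held by 17.2% of all genes, and below in 4 members, an order held by 14.4%.

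Orai1 was at 25.9, 29.4, 32.8 and 32.5 CPM in WT + TAM and at 42.1, 45.9 and 39.3 CPM in Mtm1-/y + TAM. The groups did not overlap. On the log2 scale the difference was 0.49 (SE 0.10, 95% interval 0.27 to 0.71, adjusted p = 0.0043), and it passed in all 15 fits without 1 library.

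Jsrp1 was at 281, 237, 236 and 253 CPM in WT + TAM and at 329.6, 387 and 361 CPM in Mtm1-/y + TAM. Again no library of the groups overlapped. On the log2 scale the difference was 0.51 (SE 0.13, 95% interval 0.24 to 0.79, adjusted p = 0.0120), and the call was lost without Mtm1-/y + TAM replicate 2 (adjusted p = 0.0636).

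Tmem38b was at 68.7, 52.5, 60.1 and 69.1 CPM in WT + TAM and at 89.7, 90.4 and 73.1 CPM in Mtm1-/y + TAM. Replicate 3 of the treated mutants was only just above the highest WT + TAM library. Its log2 fold change was 0.43 (SE 0.14, 95% interval 0.14 to 0.73, adjusted p = 0.0396). The call was lost in 6 of 15 fits without 1 library (WT replicates 2 and 3, WT + TAM replicates 2 and 3, Mtm1-/y + TAM replicates 1 and 2), with adjusted p of 0.0520 to 0.145.

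Stim2 was at 36.1, 47.3, 45.9 and 35.8 CPM in WT + TAM and at 32.3, 31.8 and 27.4 CPM in Mtm1-/y + TAM. All 3 treated mutants were below all 4 treated WT mice. Its log2 fold change was -0.44 (SE 0.14, 95% interval -0.74 to -0.13, adjusted p = 0.0422). The call was lost in 7 of 15 fits without 1 library (WT replicates 2 and 3, WT + TAM replicates 2 and 3, and each Mtm1-/y + TAM replicate), with adjusted p of 0.0527 to 0.158.

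The remaining 6 members did not pass under tamoxifen. Stim1 was at 333, 284, 294 and 336 CPM in WT + TAM and at 270.4, 281 and 257 CPM in Mtm1-/y + TAM, a log2 fold change of -0.21 (adjusted p = 0.248). Its groups did not overlap, although the highest mutant and the lowest WT library were almost level. Srl, at 2702, 2405, 2420.2 and 2435 CPM against 2071, 2230.3 and 1895 CPM, had a log2 fold change of -0.27 (adjusted p = 0.246).

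Hrc, at 1151, 1101, 1129 and 1124 CPM against 995, 962 and 1001 CPM, had a log2 fold change of -0.19 (adjusted p = 0.304). In Srl and Hrc, too, every treated mutant library was below every treated WT library. Casq1, at 5262, 4895, 4446 and 3950.3 CPM against 3771, 4114 and 3376 CPM, had a log2 fold change of -0.31 (95% interval -0.85 to 0.24, adjusted p = 0.437). Tmem38a, at 1422, 1378, 1646 and 1369 CPM against 1498, 1299 and 1613 CPM, had a log2 fold change of 0.02 (95% interval -0.31 to 0.34), and its groups overlapped.

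Casq2 was the most scattered member, at 14.8, 54.4, 41.4 and 82.9 CPM in WT + TAM and at 38.2, 74.8 and 45.4 CPM in Mtm1-/y + TAM. Its lowest value, 14.8 CPM, was in WT + TAM replicate 1, the library with the highest sum of slow fibre markers. That sum was 1376 CPM there and was led by Myh7 at 439 CPM and Myl2 at 272 CPM. The same library also had the highest sums of fibroblast markers (4692 CPM) and Schwann cell markers (177 CPM). The part of fibre or cell makeup in the Casq2 scatter was not tested. The log2 fold change was 0.13 (95% interval -0.74 to 1.00) and turned to -0.17 when WT + TAM replicate 1 was left out together with Mtm1-/y replicate 1.

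Under tamoxifen no ratio of paralogues passed between genotypes, with two-sided exact permutation p of 0.543 for Casq2 to Casq1, 0.371 for Stim2 to Stim1 and 0.143 for Tmem38b to Tmem38a. With 3 against 4 libraries the smallest p is 0.0286. Stim2 stood at 21.5 to 33.7 per 100 Stim1 in WT + TAM and at 21.5 to 24.2 per 100 in Mtm1-/y + TAM. Orai1 stood at 35.2 to 50.4 per 100 Stim1 in WT + TAM and at 69.0 to 73.8 per 100 in Mtm1-/y + TAM.

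**Figure D4:**
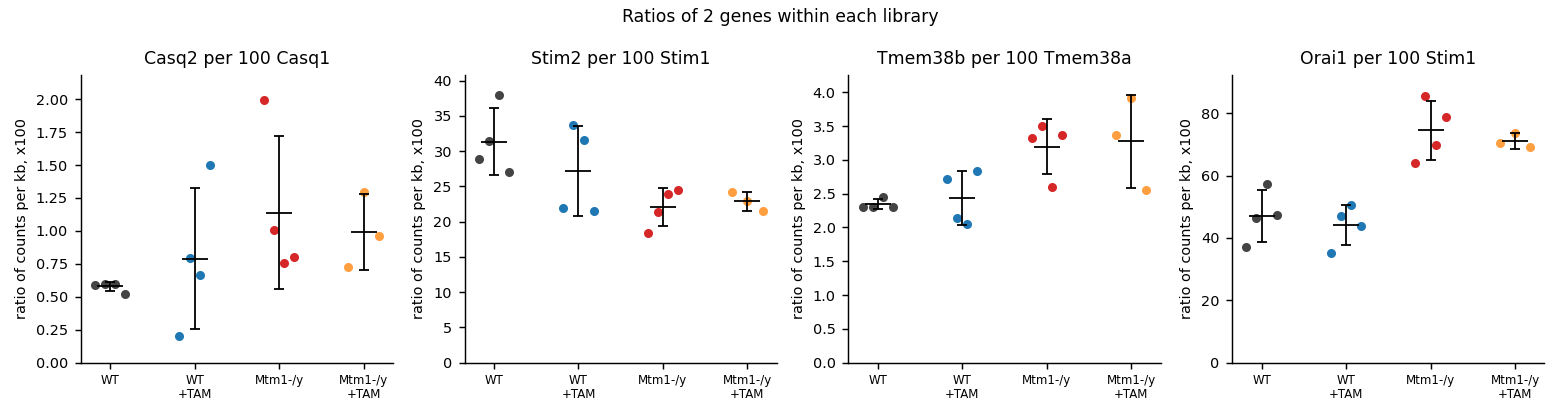
Ratio of a pair of genes within each library (points), in counts per kb and per 100 of the second gene, with the mean and SD of each group. Orai1 per 100 Stim1 is 37.1 to 57.3 in WT and 64.2 to 85.5 in Mtm1-/y, and the same order is seen under tamoxifen.

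The next comparisons ask what tamoxifen changed within a genotype, and they share their libraries with the comparisons above. In WT + TAM against WT, 0 of the 10 members passed in edgeR, where 0.309% of all genes did. At an unadjusted p under 0.05 were 0 members, beside 1757 of the 15533 genes tested. The lowest adjusted p of a member was 0.675, for Srl. Log2 fold changes ran from -0.27 for Casq1 (95% interval -0.77 to 0.23) to 0.12 for Jsrp1 (95% interval -0.14 to 0.38). Orai1, at nearly equal means of 29.9 and 30.2 CPM, had a 95% interval of -0.19 to 0.22.

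In Mtm1-/y + TAM against Mtm1-/y, again 0 of the 10 members passed in edgeR, where 0.0129% of all genes did. Orai1 was the 1 member at an unadjusted p under 0.05 (adjusted p = 0.855), beside 861 of the 15533 genes tested. Orai1 was at 49.5 ± 4.91 CPM in Mtm1-/y (SD, n = 4) and 42.4 ± 3.28 CPM in Mtm1-/y + TAM (SD, n = 3). The groups overlapped and the log2 fold change was -0.22 (95% interval -0.44 to -0.0024). Tmem38b, at 98.2 ± 18.4 against 84.4 ± 9.81 CPM, had a log2 fold change of -0.22 (95% interval -0.52 to 0.08), and -0.081 without Mtm1-/y replicate 1.

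The lowest log2 fold change was that of Tmem38a, -0.25 (95% interval -0.57 to 0.08), and the highest that of Casq2, 0.12 (95% interval -0.75 to 0.99). Without Mtm1-/y replicate 1, Tmem38a was at -0.14 and Orai1, at -0.27, was lower. Casq1 had 0.08 (95% interval -0.46 to 0.62), which turned to -0.15 without Mtm1-/y replicate 1. DESeq2 and limma-voom also called 0 of the 10 members in either comparison.

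The interaction term tests whether tamoxifen acted on a member unequally in WT and mutant muscle. In edgeR 0 members passed, where 0% of all genes did. No member was at an unadjusted p under 0.05, while 1650 of the 15533 genes tested were. DESeq2 called 74 genes and limma-voom 0, and neither called a member. The interaction was highest for Casq1, at 0.35 on the log2 scale (SE 0.35), and lowest for Stim1, at -0.26, with -0.24 for Orai1 (lowest adjusted p of a member 0.570). Without Mtm1-/y replicate 1 the Casq1 value was 0.12, and Orai1, at -0.28, was below Stim1, at -0.24. The smaller genotype difference of Orai1 under tamoxifen, 0.49 beside 0.73, was thus not shown to differ.

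Other genes of the same processes were taken from 3 lists. Of 15 genes of store-operated entry, 5 passed in Mtm1-/y against WT, with 2 higher and 3 lower, a share near the 30.4% of all genes tested. Orai2, another pore subunit, was at 1.01 to 1.26 CPM in WT and 2.64 to 9.47 CPM in Mtm1-/y. It rose by 2.18 on the log2 scale (SE 0.36, adjusted p = 0.00049), with Mtm1-/y replicate 1 highest. Esyt1, a tether of reticulum and plasma membrane, was at 33.7 to 33.9 CPM in WT and 62.0 to 74.0 CPM in Mtm1-/y and rose by 0.99 (SE 0.12, adjusted p = 3.34e-05).

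Homer2, a scaffold that binds calcium channels, was at 16.8 to 21.5 CPM in WT and 6.70 to 9.52 CPM in Mtm1-/y, a log2 fold change of -1.23 (adjusted p = 9.69e-05). Homer1, its paralogue, also fell (log2 fold change -0.98, adjusted p = 0.000595). Trpc6, a cation channel, fell as well (log2 fold change -1.23, adjusted p = 0.0317), but from only 0.344 to 0.469 CPM in WT to 0.0807 to 0.291 CPM in Mtm1-/y. Its lowest value is under the 0.130 CPM that 3 counts make in that library. The third ORAI gene, Orai3, and Saraf and Stimate, regulators of STIM1, did not pass.

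**Figure D5:**
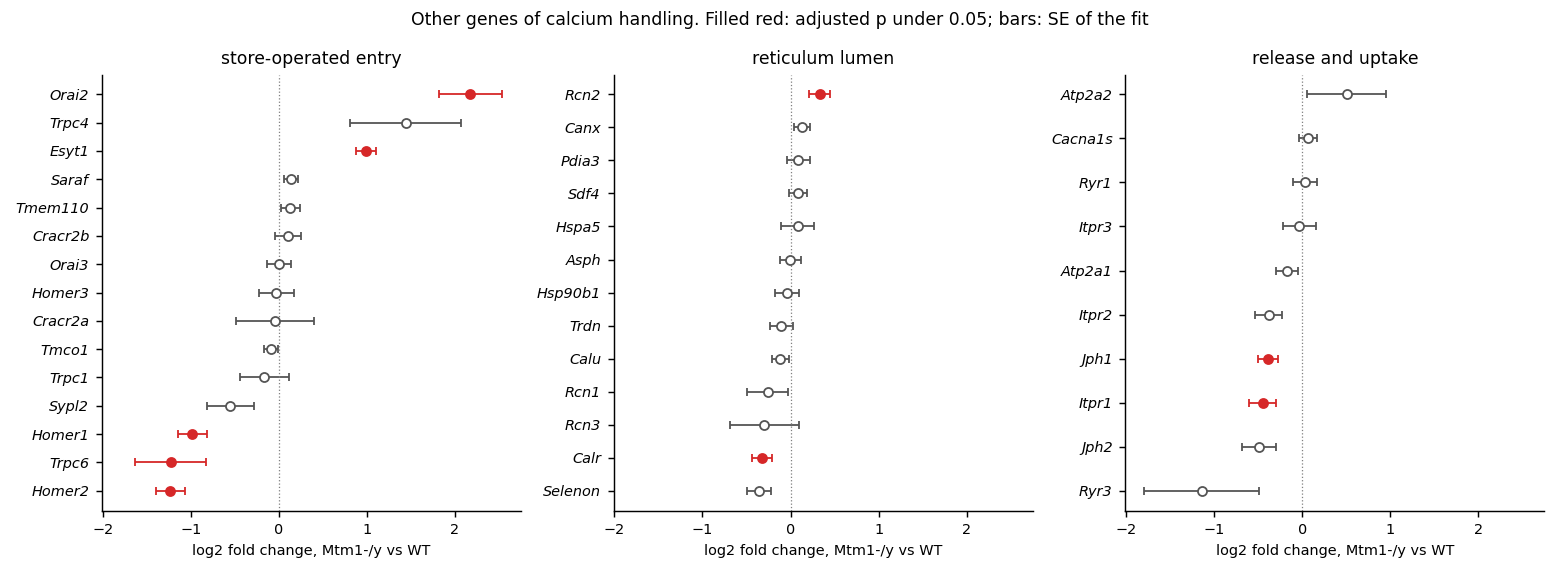
Log2 fold change of Mtm1-/y against WT (point) with its SE (bar) for the 15, 13 and 10 other genes of store-operated entry, the reticulum lumen, and calcium release and uptake, filled red where the adjusted p is under 0.05. Stimate is shown under its annotated symbol Tmem110, and 5, 2 and 2 genes of the lists are filled.

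Under tamoxifen 4 of the 15 passed, where 20.1% of all genes did, with Orai2 (log2 fold change 1.33, adjusted p = 0.0202) and Esyt1 (0.74, adjusted p = 0.000981) higher and Homer2 (-1.24, adjusted p = 0.000295) and Homer1 (-0.77, adjusted p = 0.0088) lower. In the comparisons of tamoxifen with no drug, the lowest adjusted p in the 3 lists was 0.0843 in WT and 0.855 in Mtm1-/y.

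Of 13 genes of the reticulum lumen, 2 passed in Mtm1-/y against WT, a smaller share than the 30.4% of all genes. Rcn2, a calcium-binding protein of the secretory pathway, was higher by 0.33 (adjusted p = 0.0450), and Calr, the chaperone calreticulin, was lower (log2 fold change -0.32, adjusted p = 0.0392). Trdn, which encodes triadin, the partner of calsequestrin at the release channel, did not pass. Rcn2 alone passed under tamoxifen (0.51, adjusted p = 0.0115), where 20.1% of all genes did.

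Of 10 genes of calcium release and uptake, 2 passed and both were lower, where 30.4% of all genes passed and 14.9% were called lower. Jph1, which encodes a junctophilin that bridges tubule and reticulum, was at 377 to 423 CPM in WT and 260.1 to 374 CPM in Mtm1-/y (log2 fold change -0.39, adjusted p = 0.0141). Itpr1, an inositol trisphosphate receptor, was at 37.2 to 41.0 CPM in WT and 21.3 to 35.2 CPM in Mtm1-/y (log2 fold change -0.45, adjusted p = 0.0324). Ryr1, the release channel of skeletal muscle, had a log2 fold change of 0.03 (adjusted p = 0.895). Under tamoxifen 3 of the 10 passed, where 20.1% of all genes did. All 3 were lower, beside 1469 of the 15533 genes tested, and these were Jph1, Itpr2 and Atp2a1, the calcium pump of fast fibres. In 7 of the 10 every Mtm1-/y + TAM library was below every WT + TAM library, an order held by 14.4% of all genes. The median log2 fold change of this list was -0.44, beside -0.017 over all genes tested.

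Markers of other cell types moved with genotype as well. All 5 endothelial markers fell in Mtm1-/y, from a sum of 376 to 492.7 CPM in WT to 190.4 to 264 CPM. Of 10 markers of immature or regenerating fibres 9 rose, among them Myog from at most 9.53 CPM in WT to at least 24.1 CPM. Actc1 fell (log2 fold change -3.42). The sum of this list, led by Actc1 in WT, was 3220 to 8679 CPM in WT and 441 to 1157 CPM in Mtm1-/y. Of the 10 fast fibre markers 2 fell, a share near that of all genes, and of the 8 macrophage markers 3 rose. The slow fibre list had 1 of 8 markers lower, Myl3, and the satellite cell list 1 of 2. The slow fibre sum was yet higher in the mutants, at 82.6 to 108 CPM in WT and 109.4 to 140 CPM in Mtm1-/y. Tnni1 went from 1.58 to 2.52 CPM in WT to 11.7 to 17.3 CPM in Mtm1-/y. It was not called (log2 fold change 2.65, adjusted p = 0.0656). The Schwann cell list had 2 of 6 higher and the fibroblast list 1 of 6. Of all genes tested, 15.5% were called higher and 14.9% lower. Several members, Orai1, Stim2 and Tmem38b among them, are expressed in many cell types, and the part of cell makeup in their changes was not tested.

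The genes most alike to Orai1 across the 15 libraries, by the root mean square difference of centred log2 CPM, were Urgcp (0.103), Saysd1 (0.115) and Pigx (0.118), beside 0.339 for the scatter of Orai1 about its own mean. For Casq1 they were Sh3bgr (0.139), Camk2a (0.146) and Ube2n (0.153), beside 0.446 for Casq1. The scatter of Casq2 was wider, 0.537, and its nearest gene, Abtb2, was at 0.259. For Stim1, whose own scatter was 0.147, they were Tmem8b, Shoc2 and Zfr at 0.0849 to 0.0874. These are descriptions over libraries that share genotype and treatment.

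Sequences before the RefSeq start were read for 7 of the 10 members, from windows of GRCm38.p6. They are shown for 4 members, since Orai1 moved opposite to Stim2 and Casq1 and since Casq2 is the paralogue of Casq1. Each run holds the 250 bases before the start, 5′ to 3′ on the strand of the gene, at chr5:123014824-123015073 (plus) for Orai1, chr5:53998273-53998522 (plus) for Stim2, chr1:172219896-172220145 (minus) for Casq1 and chr3:102086165-102086414 (plus) for Casq2. Capitals mark an E-box, the letters CANNTG that myogenic factors such as MyoD can bind, and in Casq2 also a match to the MEF2 consensus, whose letters were searched on both strands as for every motif.
Orai1: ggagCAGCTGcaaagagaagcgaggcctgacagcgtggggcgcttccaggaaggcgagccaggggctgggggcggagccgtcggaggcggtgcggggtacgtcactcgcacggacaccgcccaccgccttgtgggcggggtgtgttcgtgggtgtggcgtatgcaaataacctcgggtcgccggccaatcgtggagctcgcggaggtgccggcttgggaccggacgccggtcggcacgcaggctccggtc
Stim2: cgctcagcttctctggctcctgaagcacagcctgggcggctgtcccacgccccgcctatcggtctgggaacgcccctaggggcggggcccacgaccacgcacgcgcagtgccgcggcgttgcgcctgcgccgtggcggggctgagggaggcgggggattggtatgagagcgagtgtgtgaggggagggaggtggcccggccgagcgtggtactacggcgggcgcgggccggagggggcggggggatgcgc
Casq1: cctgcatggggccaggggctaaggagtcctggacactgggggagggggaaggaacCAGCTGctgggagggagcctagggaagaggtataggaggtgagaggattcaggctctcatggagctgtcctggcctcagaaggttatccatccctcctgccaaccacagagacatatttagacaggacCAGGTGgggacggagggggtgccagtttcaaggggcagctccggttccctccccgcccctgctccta
Casq2: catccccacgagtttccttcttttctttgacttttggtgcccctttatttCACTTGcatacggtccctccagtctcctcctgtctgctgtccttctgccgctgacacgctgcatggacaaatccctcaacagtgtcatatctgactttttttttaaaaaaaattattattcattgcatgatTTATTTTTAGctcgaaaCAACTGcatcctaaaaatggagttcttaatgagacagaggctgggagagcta

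An E-box was found in 5 of the 7 members and in 66.2% of all 32851 windows, so that its presence does not set the members apart. The form CAGCTG, which is also a match to CANNTG, was in 3 of 7 (Casq1, Orai1 and Hrc) and in 13.0% of all. The MEF2 consensus was in Casq2 alone, 69 to 60 bases before the start, and in 2.92% of all. The Stim2 window held no E-box.

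The GC box GGGCGG was in 5 of 7 members and in 32.7% of all windows, with 8 copies for Stim1, 3 for Stim2 and 3 for Orai1. Windows of the entry genes were rich in G and C, at 78.4% for Stim1, 74.8% for Stim2 and 70.8% for Orai1, against 61.6% for Casq1, 41.6% for Casq2 and a median of 52.4% over all. The letters GGAAA, a core bound by NFAT factors, were in 2 of 7 (Casq2 and Tmem38a) and in 55.6% of all, and TATAAA was in 0 of 7 and 12.4% of all. Such matches are letters only and say nothing of binding.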

How the data were processed

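Polyadenylated RNA of tibialis anterior muscle from 15 mice was sequenced from stranded TruSeq libraries. The authors deposited raw counts per Ensembl gene with no normalization. Their processing notes list STAR 2.5.3a, HTSeq 0.6.1p1, Bowtie2 2.2.8 and cutadapt 1.10, with GRCm38 (mm10) as the build. Whether counting used strand, how reads were filtered and which annotation was used is not stated in any source used here. GENCODE release M21 held all 30672 identifiers and gave symbols, positions and exon lengths, taken over all annotated exons of a gene together. Groups came from the labels, and no column was left out.

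Counts were tested with edgeR 4.0.16 in R 4.3.3 (filterByExpr with the 4 groups and a minimum count of 10, TMM factors, robust glmQLFit with 4 group means over all 15 libraries, 11 residual degrees of freedom, glmQLFTest). Benjamini-Hochberg adjustment ran over all 15533 genes tested, with a threshold of 0.05. SE was the absolute log2 fold change over the square root of F, and 95% intervals used the t quantile of the fit's degrees of freedom. Ratios of paralogues used log2 of (count + 0.5) per kb within a library and exact permutation tests (Python 3.11.15), adjusted over 12 tests. DESeq2 1.42.0, limma-voom (limma 3.58.1), other scalings, filters and sample sets, a replicate block and leaving out each library were alternatives. The scripts were tested on simulated data.

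Totals were 18042558 to 45823277 counts per library. A count of 0 allows up to 3 counts, or 0.0655 to 0.166 CPM, and such limits cover counting error only. All members are named, and of the other pathway genes those called with the 2 largest rises and the 2 largest falls in each list were named with their values. Homer1, Orai3, Saraf, Stimate, Trdn, Ryr1, Itpr2 and Atp2a1 were added after their values were seen. The members and lists were chosen with earlier results of these data known. One gene of the store-operated entry list is not reported here.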

Additional observations from a re-analysis of the deposited data

Results flagged for a closer look

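In 5 of 39 groups of 4 libraries, 1 library lay farther from the others than Dixon's 95% limit allows, where chance gives about 1 group in 20. Srl was at 2702 CPM in WT + TAM replicate 1, the library with the high slow fibre sum, while the rest of that group ran from 2405 to 2435 CPM. Hrc was at 1319.7 CPM in Mtm1-/y replicate 3 and at 955 to 1017 CPM in the other Mtm1-/y libraries. That same library had the highest Casq1, Srl and Stim2 of its group. The log2 ratio of Tmem38b to Tmem38a was -5.27 in Mtm1-/y replicate 3 and -4.91 to -4.84 in the others. In WT replicate 3 this ratio was -5.35, beside -5.44 in each of the other WT libraries. The log2 ratio of Casq2 to Casq1 was -7.58 in WT replicate 4, beside -7.41 to -7.38 in the other WT libraries.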

How the results depend on the processing

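Orai1, Tmem38b and Jsrp1 were called in Mtm1-/y against WT under all alternatives. The number of members called there, 6, was 3 to 7 when 1 library was left out (3 without WT replicate 1). Under tamoxifen it was 4, and 1 to 4 when 1 library was left out (1 without Mtm1-/y + TAM replicate 2). A replicate number was not taken to pair the samples. Of 14 pairs with the same number, 4 had deviations that correlated over 0.1 (range -0.11 to 0.31) and 5 correlated best with their own number. With so few libraries these counts cannot exclude pairing. With the replicate block 5 and 4 members were called, Casq2 turned to -0.043 in WT + TAM against WT, and Tmem38a to -0.042 in Mtm1-/y + TAM against WT + TAM. By limma-voom Casq2 was at -0.14 in WT + TAM against WT. Without both WT + TAM replicate 1 and Mtm1-/y replicate 1, Casq2 was at -0.17 in Mtm1-/y + TAM against WT + TAM, and in Mtm1-/y + TAM against Mtm1-/y Casq1 was at -0.15 and the log2 ratios of Casq2 to Casq1 and Stim2 to Stim1 differed by 0.19 and -0.025. The ratio of Tmem38b to Tmem38a in WT + TAM against WT was then -0.015. The cause was not tested.

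Leaving out 1 library turned the differences below, none of which had passed, and also small differences of Stim2, Srl and Jsrp1 in Mtm1-/y + TAM against Mtm1-/y (lowest -0.18, -0.092 and -0.074, highest 0.0049, 0.13 and 0.13) and of Orai1, Tmem38a and Tmem38b in WT + TAM against WT (lowest -0.031, -0.087 and -0.025, highest 0.079, 0.048 and 0.10). The interactions of Casq2 (-0.31 to 0.43), Stim2, Hrc and Jsrp1 (each within -0.20 to 0.13) turned too. In Mtm1-/y against WT, Stim1 ran from -0.0097 to 0.13. In Mtm1-/y + TAM against WT + TAM, Casq2 ran from -0.21 to 0.52 and Tmem38a from -0.056 to 0.097. In WT + TAM against WT, Casq2 ran from -0.30 to 0.39, the Casq2 to Casq1 ratio from -0.28 to 0.68 and the Tmem38b to Tmem38a ratio from -0.036 to 0.12. In Mtm1-/y + TAM against Mtm1-/y, Casq1 ran from -0.15 to 0.29, Casq2 from -0.22 to 0.31, and the ratios Casq2 to Casq1 from -0.33 to 0.19, Stim2 to Stim1 from -0.025 to 0.11 and Tmem38b to Tmem38a from -0.12 to 0.19. The intervals of Casq2 rest on 3 or 4 mice per group and on an estimate of spread shared by all groups. Its SD was largest in WT + TAM, at 28.3 CPM.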
